A study of Homo sapiens with 16 samples.

Results

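Fibronectin and matricellular proteins were followed through 9 genes: FN1, TNC, POSTN, TGFBI, SPARC, THBS1, THBS2, EFEMP1 and FBN1. They were chosen as a list of symbols, and every symbol matched 1 of the 60448 Ensembl genes in the deposited count tables. The 9 genes also passed the filter on low counts, which kept 18285 genes. RNA was sequenced from HMLER cells, a transformed human mammary epithelial line that carries TERT and an oncogenic HRAS. The study compared epithelial cells that stay epithelial, epithelial cells that can convert, and mesenchymal cells, with and without loss of a chromatin regulator.

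There were 16 libraries in 8 groups of 2, and all carry the transforming genes of HMLER. C1-sgEED-Mes and C1-sgEED-Epi are mesenchymal and epithelial cells derived from C1 with a guide against EED, and their genotype is given as EED-KO. EED is a core subunit of PRC2, which writes repressive methylation on histone H3. C1-sgKMT2D-Mes and C1-sgKMT2D-Epi are the same pair of states with a guide against KMT2D (genotype KMT2D-KO), an activating histone H3 methyltransferase. C2-Mes and C2-Epi are unedited mesenchymal and plastic epithelial cells, labelled wild type. C1-sgControl carries a control guide and C1 is the unedited, stably epithelial population, and both are labelled wild type. All groups share 1 growth medium, and the RNA came from cultured or sorted cells without a label that says which. Separate cultures for the 2 libraries of a group are not stated, so the spread within groups may be technical. A p-value covers no more than that spread, pooled over all 8 groups. Whether a group is 1 clone is not stated either. Names of the libraries differ between the epithelial and mesenchymal cells of a guide by an element that may denote a clone, so clone and state cannot be told apart.

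Fibronectin is a secreted glycoprotein that cells pull into fibrils through integrins, and it is among the matrix genes most often used to mark the passage of mammary epithelial cells to a mesenchymal state. Matricellular proteins are secreted into the same matrix but act mainly by binding receptors, growth factors and other matrix proteins rather than by carrying load. Fibrillin forms the microfibrils of elastic fibres and holds latent TGF-beta, the signal that induces several of these genes.

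Total counts ran from 18872124 to 31950649 a library. EED, the targeted gene, averaged 5.36 CPM (counts scaled by TMM to a library total of 1000000) in C1-sgEED-Mes and 28.1 CPM in C1-sgEED-Epi, against 24.1 CPM in C1-sgControl. KMT2D averaged 81.7 CPM in C1-sgKMT2D-Mes and 126 CPM in C1-sgKMT2D-Epi, against 80.4 CPM in C1-sgControl. In edgeR's test KMT2D was higher in C1-sgKMT2D-Epi than in C1-sgControl (log2 change 0.64, SE 0.18, adjusted p = 0.0067). It was also higher in C1-sgEED-Epi than in C1-sgControl (0.60, adjusted p = 0.012). KMT2D was lower in C1-sgKMT2D-Mes than in C1-sgKMT2D-Epi (-0.62, adjusted p = 0.0092) and in C1-sgEED-Mes than in C1-sgEED-Epi (-0.54, adjusted p = 0.026). By edgeR's test, the EED level in C1-sgEED-Mes lay below that of C1-sgEED-Epi (log2 change -2.39, SE 0.16, adjusted p = 3.8e-08). EED was also lower in C1-sgKMT2D-Mes than in C1-sgKMT2D-Epi (-0.73, adjusted p = 7.6e-04) and in C2-Mes than in C2-Epi (-0.67, adjusted p = 0.0023). Between C1-sgEED-Epi and C1-sgControl the EED difference did not pass (0.22, adjusted p = 0.22). Transcript level alone does not show whether a guide edited its gene, and edits were not tested here. CDH1, the epithelial cadherin, was at most 1.42 CPM in the 6 mesenchymal libraries and at least 211 CPM in the 10 epithelial ones. The summed level of 8 epithelial markers was 1291 to 1533 CPM in C1-sgEED-Mes and 71.2 to 154 CPM in the other mesenchymal libraries, against 4773 to 12280 CPM in epithelial libraries. The sum of 5 endothelial markers was 18.6 to 30.7 CPM in C2-Mes, with CDH5 at 0, against 1.41 to 4.60 CPM in all other groups. The sum of 4 neural markers was 6.38 to 13.2 CPM in mesenchymal libraries, with SOX10 at 0, against 0.246 to 2.23 CPM in epithelial ones. The 6 leukocyte markers summed to at most 1.55 CPM and the 4 muscle markers to at most 0.880 CPM. The part of other cell types in the results was not tested. C2-Mes replicates agreed least. The SD of the log2 differences between them was 0.890, and at most 0.493 in other groups. Their library names differ in form, and the name of replicate 1 may mark a repeat preparation. In bulk RNA, fewer cells of a type and less RNA per cell cannot be told apart.

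Promoters are shown for the 3 genes that rose in every transition described below, FN1, SPARC and FBN1, and for POSTN, whose change was the largest of the 9 in the EED-guide transition, though not in the others. Each runs from 250 bases before to 50 bases after the RefSeq start, 5′ to 3′ on the gene's strand, on GRCh38.p14. They lie at chr2:215436019-215436318 (FN1), chr5:151686866-151687165 (SPARC), chr15:48644921-48645220 (FBN1) and chr13:37598719-37599018 (POSTN), all on the minus strand. Capitals mark matches on either strand to 3 motifs, which do not overlap here. CACCTG is the E-box that ZEB and SNAI repressors can bind. An AP-1 site was searched as TGANTCA. The TATA box was searched as TATAAA.
FN1: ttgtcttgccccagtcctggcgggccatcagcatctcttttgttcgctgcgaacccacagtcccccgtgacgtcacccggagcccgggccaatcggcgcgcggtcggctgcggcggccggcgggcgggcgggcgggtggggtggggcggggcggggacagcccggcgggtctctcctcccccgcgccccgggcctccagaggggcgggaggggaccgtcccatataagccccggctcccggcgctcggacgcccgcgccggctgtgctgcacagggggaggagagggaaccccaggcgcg
SPARC: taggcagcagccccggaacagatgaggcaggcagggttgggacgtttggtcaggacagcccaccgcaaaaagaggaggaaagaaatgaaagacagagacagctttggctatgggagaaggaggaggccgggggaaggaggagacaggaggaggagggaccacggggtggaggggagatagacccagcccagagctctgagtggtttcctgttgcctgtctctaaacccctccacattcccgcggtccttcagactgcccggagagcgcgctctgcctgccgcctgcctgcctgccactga
FBN1: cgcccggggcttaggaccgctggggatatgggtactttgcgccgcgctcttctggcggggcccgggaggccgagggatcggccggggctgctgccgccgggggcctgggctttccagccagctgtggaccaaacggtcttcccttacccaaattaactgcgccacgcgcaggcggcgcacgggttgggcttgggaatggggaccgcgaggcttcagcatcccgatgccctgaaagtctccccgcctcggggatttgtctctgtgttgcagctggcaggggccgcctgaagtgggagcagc
POSTN: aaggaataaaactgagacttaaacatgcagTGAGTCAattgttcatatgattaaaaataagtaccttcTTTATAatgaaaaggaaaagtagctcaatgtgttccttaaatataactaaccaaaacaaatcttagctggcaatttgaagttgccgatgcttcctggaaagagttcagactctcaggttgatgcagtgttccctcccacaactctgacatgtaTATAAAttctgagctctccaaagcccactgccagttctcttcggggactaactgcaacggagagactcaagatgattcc
CACCTG stood in 20.6% of all 35116 promoters of this length, TGANTCA in 7.71% and TATAAA in 11.5%. POSTN held TGAGTCA at position -220 and TATAAA at -29 relative to the start, and TTTATA, the same box on the other strand, at -182. THBS2 held TATAAA at -29. The windows of FN1, SPARC, FBN1, TNC, TGFBI and THBS1 held none of these letters. EFEMP1 was not in the promoter table.

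The 9 genes together, mostly through FN1, took a large share of the RNA in the mesenchymal cells that carry a guide. They made up 10.2 and 10.6% of all counts in the C1-sgEED-Mes libraries, 13.2 and 13.9% in C1-sgKMT2D-Mes and 3.52 and 3.65% in C2-Mes, against 1.80 to 2.91% in the 10 epithelial libraries. FN1 alone held 12.6 and 13.2% of counts in C1-sgKMT2D-Mes, 8.70 and 9.01% in C1-sgEED-Mes and 3.41% in both C2-Mes libraries. Without FN1, the rest of the set took a larger share in C1-sgEED-Mes than in C1-sgEED-Epi. It took no larger share in C1-sgKMT2D-Mes than in C1-sgKMT2D-Epi, and a smaller one in C2-Mes than in C2-Epi.

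**Figure D1:**
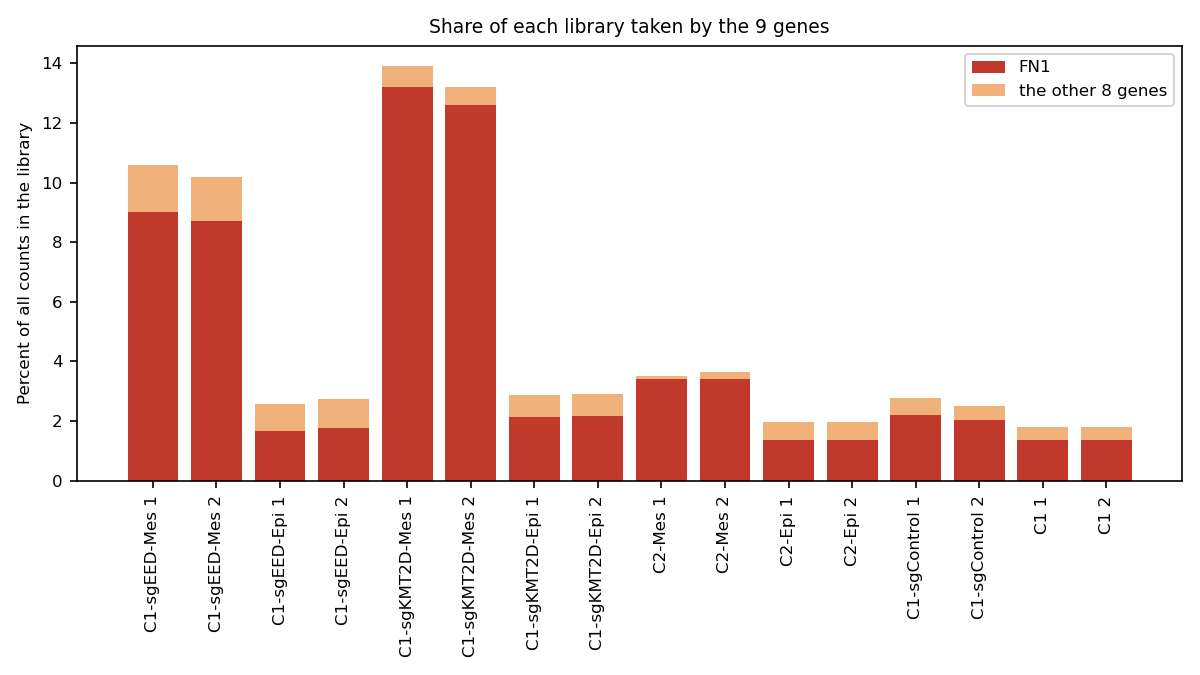
Percent of all counts (y axis) taken by FN1 (red) and by the other 8 genes (orange) in each of the 16 libraries (x axis). FN1 dominates the share in every library, and the 2 C1-sgKMT2D-Mes libraries stand highest at 13.2 and 13.9% for the 9 genes.

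In each transition, mesenchymal cells were compared with the epithelial cells of the same line or guide. Calls are genes with a Benjamini-Hochberg adjusted p under 0.05 in edgeR's quasi-likelihood test over all genes, and "rose" or "fell" is used only of called genes. In C1-sgEED-Mes against C1-sgEED-Epi, 7 of the 9 genes rose and 0 fell, where 19.2% of all genes tested rose and 17.3% fell. In C1-sgKMT2D-Mes against C1-sgKMT2D-Epi, 3 rose and 4 fell, where 26.8% of all genes rose and 24.0% fell. In C2-Mes against C2-Epi all 9 were called, of which 6 rose and 3 fell, where 39.6% of all genes were called. A fit of only the compared libraries called 7 of the 9, where SPARC did not pass and the filter on low counts removed THBS2. FN1, SPARC and FBN1 rose in all 3 transitions, as did 7.69% of all genes. TNC, TGFBI, THBS2 and EFEMP1 rose in 1 transition and fell in another, as did 5.75% of all genes, while 7.03% of all genes and 0 of the 9 fell in all 3.

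**Figure D2:**
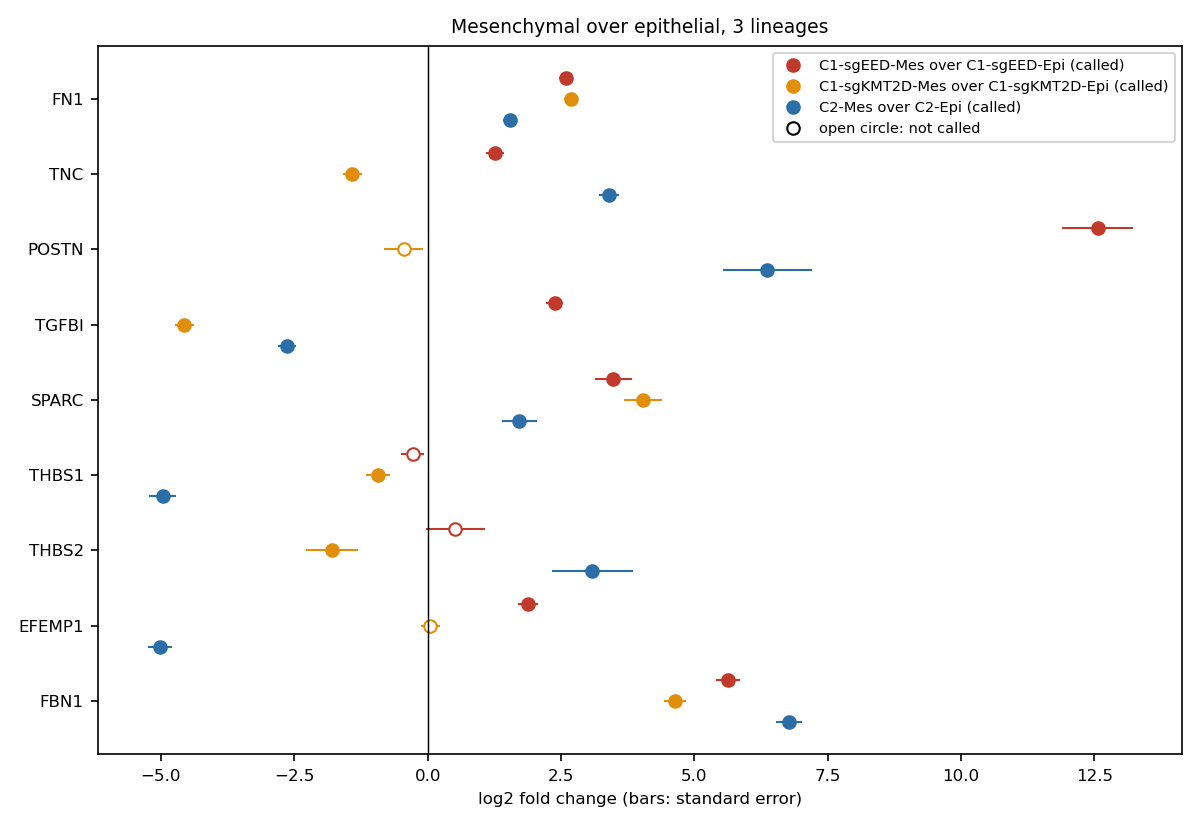
log2 fold change (x axis; bars are standard errors) of each of the 9 genes in mesenchymal over epithelial cells, for the EED guide (red), the KMT2D guide (orange) and C2 (blue). Filled circles passed the test; FN1, SPARC and FBN1 lie right of 0 in all 3 lineages, while TGFBI, TNC and EFEMP1 lie on different sides.

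FN1 (ENSG00000115414, chromosome 2, 215360440 to 215436172, minus strand) was higher in each mesenchymal group than in its epithelial partner, with no overlap between libraries. It had 95584 and 98005 CPM in C1-sgEED-Mes, against 15225 and 16987 CPM in C1-sgEED-Epi, a log2 change of 2.59 (SE 0.13, adjusted p = 2.3e-09). In C1-sgKMT2D-Mes it had 141637 and 130673 CPM, against 21341 and 20808 CPM in C1-sgKMT2D-Epi, a log2 change of 2.69 (SE 0.13, adjusted p = 1.4e-09). In C2-Mes it had 37561 and 34811 CPM, against 12346 and 12524 CPM in C2-Epi, a log2 change of 1.54 (SE 0.12, adjusted p = 1.9e-07). Both guide-carrying mesenchymal groups thus lay far above C2-Mes, whose lowest library was still above every epithelial one. Per length, FN1 had the highest level of the 9 genes in all 8 groups, from 7863 ± 448 RPKM (SD, n = 2) in C1-sgKMT2D-Mes down to 718 ± 7.28 RPKM in C2-Epi. The next highest of the 9 was SPARC in 3 mesenchymal groups, at 436 ± 11.2 RPKM in C1-sgKMT2D-Mes, and THBS1 in the 5 epithelial groups, at 807 ± 57.0 RPKM in C1-sgEED-Epi.

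**Figure D3:**
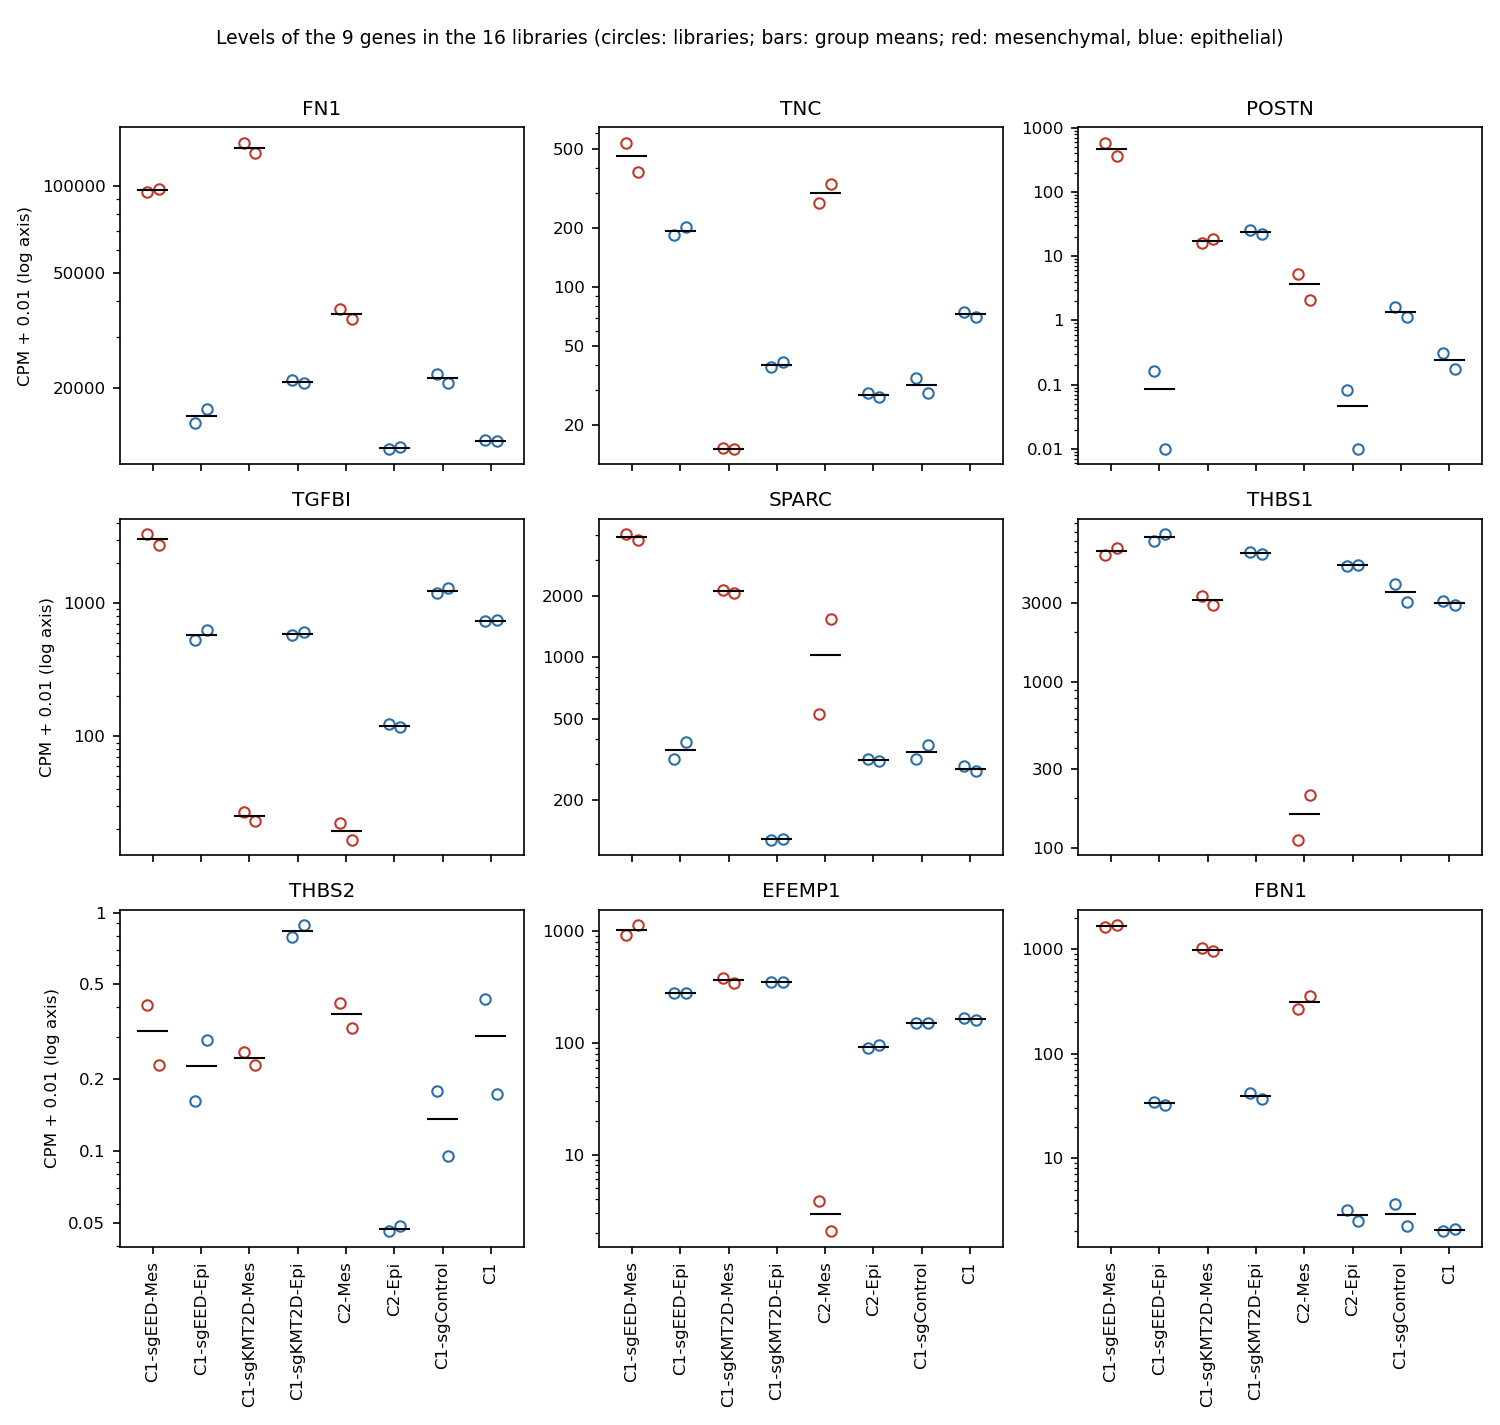
CPM + 0.01 on log axes for each of the 9 genes (panels) in the 8 groups (x axis); circles are libraries, bars are group means, red is mesenchymal and blue epithelial. FN1, SPARC and FBN1 stand highest in the 3 mesenchymal groups, while TGFBI and EFEMP1 stand highest in C1-sgEED-Mes and lowest in C2-Mes.

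TNC (ENSG00000041982, chromosome 9, 115019578 to 115118257, minus strand) encodes tenascin-C, which binds fibronectin and integrins and is known for lowering cell adhesion to fibronectin. TNC rose with the EED guide and in C2 and fell with the KMT2D guide. It had 539 and 383 CPM in C1-sgEED-Mes, against 183 and 202 CPM in C1-sgEED-Epi, a log2 change of 1.26 (SE 0.17, adjusted p = 4.8e-05). In C2-Mes it had 266 and 332 CPM, against 28.9 and 27.6 CPM in C2-Epi, a log2 change of 3.40 (SE 0.18, adjusted p = 4.0e-09). In C1-sgKMT2D-Mes it had 15.2 and 15.1 CPM, against 39.2 and 41.4 CPM in C1-sgKMT2D-Epi, a log2 change of -1.41 (SE 0.18, adjusted p = 1.5e-05). C1-sgKMT2D-Mes was the lowest of the 8 groups for TNC and C1-sgEED-Mes the highest, and in none of the 3 transitions did the libraries of the states overlap.

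POSTN (ENSG00000133110, chromosome 13, 37562583 to 37598844, minus strand) encodes periostin, a TGF-beta-inducible ligand of integrins that also binds tenascin-C and fibronectin. POSTN was nearly absent from C1-sgEED-Epi and abundant in C1-sgEED-Mes. There were 586 and 360 CPM (16160 and 8179 counts) in C1-sgEED-Mes, against 0.152 and 0 CPM (4 and 0 counts) in C1-sgEED-Epi. The fitted log2 change was 12.56 (SE 0.66, adjusted p = 7.0e-09), and it was 11.49 without C1-sgEED-Epi replicate 2 and 16.51 without replicate 1, the library with the 4 counts. The ratio of summed count rates was 6626, with an exact 95% interval of 2587 to 24319 that covers counting error only. In C2-Mes POSTN had 5.26 and 2.04 CPM (90 and 64 counts), against 0.0723 and 0 CPM (2 and 0 counts) in C2-Epi, a ratio of 85.4 (23.2 to 712). The log2 change in C2 was 6.37 (SE 0.84, adjusted p = 3.7e-05), with 5.45 to 9.45 over fits without 1 of these libraries. With the KMT2D guide POSTN was already present in epithelial cells and did not pass the test, at 16.2 and 18.5 CPM in C1-sgKMT2D-Mes against 25.4 and 21.9 CPM in C1-sgKMT2D-Epi. Its log2 change there was -0.45 (SE 0.36, adjusted p = 0.32), and it passed with no filter on low counts (adjusted p = 0.029) and in a fit of only these 4 libraries (adjusted p = 0.0011).

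TGFBI (ENSG00000120708, chromosome 5, 136028895 to 136063818, plus strand) encodes the TGF-beta-induced protein, a paralog of periostin that binds collagens and integrins. TGFBI rose with the EED guide and fell in the other transitions. It had 3331 and 2733 CPM in C1-sgEED-Mes, against 534 and 629 CPM in C1-sgEED-Epi, a log2 change of 2.38 (SE 0.16, adjusted p = 6.7e-08). C1-sgKMT2D-Mes had 26.9 and 23.3 CPM, against 576 and 610 CPM in C1-sgKMT2D-Epi, a log2 change of -4.56 (SE 0.18, adjusted p = 3.2e-10). C2-Mes had 22.2 and 16.6 CPM, against 123 and 118 CPM in C2-Epi, a log2 change of -2.64 (SE 0.17, adjusted p = 2.1e-08). The epithelial cells of the 2 guides overlapped in their TGFBI levels, and their mesenchymal cells lay on opposite sides of them.

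SPARC (ENSG00000113140, chromosome 5, 151661096 to 151687165, minus strand) encodes osteonectin, a collagen-binding protein of matrix assembly. SPARC rose in all 3 transitions. It had 4038 and 3772 CPM in C1-sgEED-Mes, against 319 and 383 CPM in C1-sgEED-Epi, a log2 change of 3.48 (SE 0.35, adjusted p = 4.3e-06). In C1-sgKMT2D-Mes it had 2146 and 2070 CPM, against 127 and 129 CPM in C1-sgKMT2D-Epi, a log2 change of 4.04 (SE 0.36, adjusted p = 9.5e-07). In C2-Mes it had 526 and 1540 CPM, against 318 and 310 CPM in C2-Epi, a log2 change of 1.72 (SE 0.33, adjusted p = 9.4e-04). The C2 libraries did not overlap, but the size of that change rests on C2-Mes replicate 2. Without that library the log2 change was 0.70 (adjusted p = 6.8e-04), and in a fit of only the 4 C2 libraries the change did not pass (adjusted p = 0.089). Mitochondrial genes took 12.5% of counts in C2-Mes replicate 1, where SPARC was low, and 8.15% in replicate 2. The part of RNA quality in this was not tested.

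THBS1 (ENSG00000137801, chromosome 15, 39581079 to 39599466, plus strand) encodes thrombospondin-1, which binds CD47 and CD36 and can activate latent TGF-beta. THBS1 rose in no transition. In C2-Mes it had 112 and 208 CPM, against 4991 and 5054 CPM in C2-Epi, a log2 change of -4.97 (SE 0.26, adjusted p = 2.5e-09). In C1-sgKMT2D-Mes it had 3299 and 2918 CPM, against 5999 and 5848 CPM in C1-sgKMT2D-Epi, a log2 change of -0.93 (SE 0.22, adjusted p = 0.0028). In C1-sgEED-Mes it had 5790 and 6372 CPM, against 7020 and 7758 CPM in C1-sgEED-Epi, and the log2 change of -0.28 (SE 0.22, adjusted p = 0.35) did not pass. C2-Mes stood apart for THBS1, with at most 208 CPM against at least 2915 CPM in every other library, and the libraries of C1-sgEED-Mes and C1-sgKMT2D-Mes lay within the range of the epithelial ones.

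THBS2 (ENSG00000186340, chromosome 6, 169215780 to 169254044, minus strand) encodes thrombospondin-2, a paralog with a similar receptor set. It was near the detection limit everywhere, with 1 to 22 counts a library. THBS2 passed the filter on low counts through C1-sgKMT2D-Epi, where it was highest. Its calls that involve that group, and the counts of called genes that include them, are therefore not independent of the filter. C2-Mes had 7 and 10 counts, against 1 and 1 in C2-Epi, a log2 change of 3.09 (SE 0.76, adjusted p = 0.0050) and a ratio of rates of 9.43 with a counting interval of 2.24 to 84.1. C1-sgKMT2D-Mes had 6 and 5 counts, against 22 and 22 in C1-sgKMT2D-Epi, a log2 change of -1.79 (SE 0.49, adjusted p = 0.0076). C1-sgEED-Mes had 11 and 5 counts, against 4 and 8 in C1-sgEED-Epi, and the log2 change of 0.52 (SE 0.55, adjusted p = 0.51) was not detectable at this depth, with overlapping libraries. An antisense gene, BX322234.1, overlaps THBS2 within introns and had 4 to 25 counts a library.

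EFEMP1 (ENSG00000115380, chromosome 2, 55865967 to 55924139, minus strand) encodes fibulin-3, an extracellular glycoprotein that binds elastic fibre components and the inhibitor TIMP3. EFEMP1 rose with the EED guide, fell in C2 and did not pass with the KMT2D guide. It had 924 and 1137 CPM in C1-sgEED-Mes, against 278 and 281 CPM in C1-sgEED-Epi, a log2 change of 1.88 (SE 0.19, adjusted p = 3.1e-06). C2-Mes had 3.86 and 2.04 CPM, against 89.2 and 95.3 CPM in C2-Epi, a log2 change of -5.02 (SE 0.23, adjusted p = 9.6e-10). C1-sgKMT2D-Mes had 381 and 345 CPM, against 351 and 348 CPM in C1-sgKMT2D-Epi, with overlapping libraries and a log2 change of 0.05 (SE 0.18, adjusted p = 0.83). The sign of that small difference turned in 4 of 10 alternative fits.

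FBN1 (ENSG00000166147, chromosome 15, 48408306 to 48645849, minus strand) encodes fibrillin-1, the main subunit of microfibrils. FBN1 rose in all 3 transitions, with a larger log2 change than FN1 in each. It had 1640 and 1695 CPM in C1-sgEED-Mes, against 34.6 and 32.5 CPM in C1-sgEED-Epi, a log2 change of 5.63 (SE 0.22, adjusted p = 4.2e-10). C1-sgKMT2D-Mes had 1020 and 951 CPM, against 41.8 and 37.2 CPM in C1-sgKMT2D-Epi, a log2 change of 4.64 (SE 0.21, adjusted p = 1.1e-09). C2-Mes had 267 and 356 CPM, against 3.22 and 2.50 CPM in C2-Epi, a log2 change of 6.77 (SE 0.24, adjusted p = 1.1e-10). The lowest mesenchymal library held more FBN1 than the highest epithelial one in every lineage and across lineages.

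The transitions differed from each other for most of these genes when the difference of log2 changes was tested as an interaction. Between the EED-guide transition and that of C2, 7 of the 9 genes differed, where 21.1% of all genes were called. Between the KMT2D-guide transition and that of C2, all 9 genes differed, where 24.1% of all genes were called. Between the transitions of the 2 guides 6 genes differed, where 20.1% of all genes were called. The counts that involve the KMT2D guide include THBS2, which passed the filter on low counts through C1-sgKMT2D-Epi. Those counts are therefore not independent of the filter. The first and second of these tests share the C2 libraries, and the third difference is the first minus the second, so the tests are not independent. TGFBI changed by 6.94 log2 units more (SE 0.24, adjusted p = 1.8e-09) with the EED guide than with the KMT2D guide, and POSTN by 13.01 more (SE 0.75, adjusted p = 1.6e-07), or 17.03 without C1-sgEED-Epi replicate 1 and 12.01 without replicate 2. EFEMP1 changed by 6.90 log2 units more (SE 0.30, adjusted p = 6.9e-09) with the EED guide than in C2. FN1 rose further with the EED guide than in C2, by 1.05 log2 units (SE 0.17, adjusted p = 4.8e-04), and further with the KMT2D guide than in C2, by 1.15 (SE 0.17, adjusted p = 2.3e-04). The FN1 difference between the 2 guides was -0.10 log2 units (SE 0.17, adjusted p = 0.73) and did not pass. FBN1 rose less with either guide than in C2, with a difference of -1.13 log2 units for the EED guide (SE 0.27, adjusted p = 0.0087) and -2.13 for the KMT2D guide (SE 0.28, adjusted p = 8.2e-05). The FBN1 call for the EED guide was lost without C2-Epi replicate 2 (-0.93, adjusted p = 0.061).

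The mesenchymal groups were also compared with each other. In C1-sgEED-Mes against C2-Mes, 8 of the 9 genes rose and 0 fell, where 21.7% of all genes rose and 20.2% fell. EFEMP1 was 8.50 log2 units higher (SE 0.26, adjusted p = 5.0e-11), TGFBI 7.29 (SE 0.21, adjusted p = 2.6e-11), POSTN 7.08 (SE 0.46, adjusted p = 5.3e-08) and THBS1 5.25 (SE 0.26, adjusted p = 2.4e-09). The POSTN value was 7.86 without C2-Mes replicate 1 and 6.43 without replicate 2. TNC rose by 0.63 log2 units (SE 0.17, adjusted p = 0.0082), but not without C1-sgEED-Mes replicate 1, where the adjusted p was 0.098, nor in a fit of these 4 libraries (adjusted p = 0.17). In C1-sgKMT2D-Mes against C2-Mes, 6 genes rose and 1 fell, where 16.2% of all genes rose and 17.2% fell. EFEMP1 rose by 6.99 log2 units (SE 0.25, adjusted p = 6.0e-10) and THBS1 by 4.28 (SE 0.25, adjusted p = 2.3e-08), while TNC fell by 4.30 (SE 0.19, adjusted p = 3.6e-09). SPARC rose by 1.03 log2 units (SE 0.32, adjusted p = 0.026), with 1.94 without C2-Mes replicate 2. That SPARC call was lost without C1-sgKMT2D-Mes replicate 1 (adjusted p = 0.093), without replicate 2 (adjusted p = 0.075) and in a fit of these 4 libraries (adjusted p = 0.27). POSTN rose by 2.31 log2 units (SE 0.40, adjusted p = 5.7e-04) and was at an adjusted p of 0.052 in a fit of these 4 libraries, with 3.09 without C2-Mes replicate 1 and 1.66 without replicate 2. These 2 comparisons share the C2-Mes libraries.

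Between the 2 guides, in C1-sgEED-Mes against C1-sgKMT2D-Mes, 6 of the 9 genes rose and 1 fell, where 17.7% of all genes rose and 13.4% fell. TGFBI was 6.92 log2 units higher (SE 0.20, adjusted p = 2.5e-10), TNC 4.93 (SE 0.20, adjusted p = 1.3e-09) and POSTN 4.77 (SE 0.41, adjusted p = 1.4e-06), all with mean levels in C1-sgEED-Mes above those of every other group. EFEMP1 rose by 1.51 log2 units (SE 0.19, adjusted p = 3.7e-05), THBS1 by 0.97 (SE 0.22, adjusted p = 0.0041) and FBN1 by 0.76 (SE 0.18, adjusted p = 0.0059), a call lost without C1-sgKMT2D-Mes replicate 2 (0.70, adjusted p = 0.053). FN1 fell by 0.49 log2 units (SE 0.12, adjusted p = 0.0063), which passed neither after a correction of GC content and length (adjusted p = 0.089) nor without C1-sgKMT2D-Mes replicate 1 (adjusted p = 0.062). SPARC differed by 0.89 log2 units (SE 0.32, adjusted p = 0.052) without overlap of its libraries and passed in 5 of 10 alternative fits.

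Epithelial groups described as plastic were compared with stably epithelial C1 cells, the edited ones through the control guide. In C1-sgEED-Epi against C1-sgControl, 4 of the 9 genes rose and 3 fell, where 24.3% of all genes rose and 24.6% fell. In C1-sgKMT2D-Epi against C1-sgControl, 5 rose and 2 fell, where 25.3% of all genes rose and 30.7% fell. Both comparisons share the C1-sgControl libraries. FBN1 had 34.6 and 32.5 CPM in C1-sgEED-Epi and 41.8 and 37.2 CPM in C1-sgKMT2D-Epi, against 3.61 and 2.23 CPM in C1-sgControl. Its log2 changes were 3.52 (SE 0.22, adjusted p = 8.1e-08) for the EED guide and 3.75 (SE 0.22, adjusted p = 4.7e-08) for the KMT2D guide, so FBN1 was higher in the epithelial cells of either guide without overlap. THBS1 rose by 1.09 log2 units (SE 0.22, adjusted p = 0.0011) with the EED guide and by 0.77 (SE 0.22, adjusted p = 0.0082) with the KMT2D guide. EFEMP1 rose by 0.88 log2 units (SE 0.19, adjusted p = 0.0015) with the EED guide and by 1.21 (SE 0.19, adjusted p = 1.1e-04) with the KMT2D guide. The THBS1 call for the KMT2D guide was lost after a correction of GC content and length (log2 change 0.45, adjusted p = 0.100).

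TNC and POSTN rose or fell in the epithelial cells of a guide, as did SPARC and THBS2 with the KMT2D guide; the 2 guide groups were not tested against each other. TNC had 183 and 202 CPM in C1-sgEED-Epi, against 34.6 and 29 CPM in C1-sgControl, a log2 change of 2.60 (SE 0.18, adjusted p = 1.9e-07) that was 1.41 (adjusted p = 6.5e-05) with C1 as the control. In C1-sgKMT2D-Epi, TNC differed from C1-sgControl by 0.34 log2 units (SE 0.17, adjusted p = 0.10). Against that control TNC passed with DESeq2 (0.40, adjusted p = 0.048) and after the GC correction (0.72, adjusted p = 1.7e-04). It also passed in a fit of only the compared libraries (0.41, adjusted p = 0.021). From C1, TNC differed by -0.85 (adjusted p = 0.0016). So the TNC difference of C1-sgKMT2D-Epi turned sign with the control used. POSTN had 25.4 and 21.9 CPM in C1-sgKMT2D-Epi, against 1.59 and 1.11 CPM in C1-sgControl, a log2 change of 4.12 (SE 0.44, adjusted p = 6.4e-06) that was 6.66 with C1 as the control and 3.06 after the GC correction. POSTN fell by 4.12 log2 units in C1-sgEED-Epi (SE 0.85, adjusted p = 0.0014), with 4 and 0 counts, against 38 and 26 in C1-sgControl. That POSTN value was -8.06 without C1-sgEED-Epi replicate 1, -3.05 without replicate 2 and -5.02 after the GC correction. Against C1, with 7 and 4 counts, the POSTN difference of C1-sgEED-Epi was -1.58 log2 units (adjusted p = 0.38). THBS2 rose by 2.65 log2 units (SE 0.55, adjusted p = 0.0010) in C1-sgKMT2D-Epi, with 22 and 22 counts, against 4 and 2 in C1-sgControl, and by 1.48 (adjusted p = 0.023) with C1 as the control. THBS2 passed the filter on low counts through C1-sgKMT2D-Epi, so this call is not independent of the filter. SPARC fell by 1.43 log2 units (SE 0.33, adjusted p = 0.0023) in C1-sgKMT2D-Epi, to 127 and 129 CPM, against 317 and 373 CPM in C1-sgControl. In C1-sgEED-Epi SPARC overlapped C1-sgControl, at 319 and 383 CPM.

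TGFBI and FN1 showed how much the control mattered. TGFBI fell by 1.10 log2 units (SE 0.16, adjusted p = 7.9e-05) in C1-sgEED-Epi and by 1.07 (SE 0.16, adjusted p = 7.1e-05) in C1-sgKMT2D-Epi, against 1187 and 1308 CPM in C1-sgControl. With C1 as the control, at 733 and 750 CPM, the TGFBI differences were -0.35 and -0.32 (adjusted p = 0.12 in both) and did not pass. FN1 fell by 0.43 log2 units (SE 0.12, adjusted p = 0.0090) in C1-sgEED-Epi against C1-sgControl, whereas against C1 the value was 0.29 (adjusted p = 0.090). The FN1 call was also lost without C1-sgEED-Epi replicate 1 (adjusted p = 0.10), without C1-sgControl replicate 1 (adjusted p = 0.056) and in a fit of these 4 libraries (adjusted p = 0.094), and after the GC correction the value was -1.21. For the KMT2D guide, FN1 was within the spread of C1-sgControl (log2 change -0.04, SE 0.12, adjusted p = 0.79), and other fits gave -0.91 (GC correction, adjusted p = 0.0011) to 0.68 (C1 as the control, adjusted p = 6.4e-04). Its sign turned to 0.02 with RLE scaling.

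The control guide itself went with changes in these genes. In C1-sgControl against C1, 3 of the 9 genes rose and 1 fell, where 13.3% of all genes rose and 13.8% fell. FN1 had 22462 and 20900 CPM in C1-sgControl, against 13232 and 13099 CPM in C1, a log2 change of 0.72 (SE 0.12, adjusted p = 8.2e-04) that was 1.33 after the GC correction. TGFBI rose by 0.75 log2 units (SE 0.16, adjusted p = 0.0036) and POSTN by 2.54 (SE 0.71, adjusted p = 0.018), while TNC fell by 1.19 (SE 0.17, adjusted p = 2.9e-04). The POSTN call was lost when any 1 of the 4 libraries was left out (adjusted p from 0.054 to 0.14), its value was 3.15 after the GC correction, and the TGFBI call reached an adjusted p of 0.050 without C1 replicate 1.

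In unedited C2-Epi against C1, 1 of the 9 genes rose and 4 fell, where 12.4% of all genes rose and 18.3% fell. TGFBI had 123 and 118 CPM in C2-Epi, against 733 and 750 CPM in C1, a log2 change of -2.62 (SE 0.17, adjusted p = 1.4e-07). TNC had 28.9 and 27.6 CPM in C2-Epi, against 75.0 and 70.5 CPM in C1, a log2 change of -1.36 (SE 0.17, adjusted p = 6.8e-05). These are the calls that held whichever library was left out. THBS1 rose by 0.75 log2 units (SE 0.22, adjusted p = 0.019), EFEMP1 fell by 0.82 (SE 0.19, adjusted p = 0.0049) and THBS2 fell by 2.82 (SE 0.79, adjusted p = 0.016). The EFEMP1 call was lost without any 1 library (adjusted p from 0.057 to 0.086), and the THBS1 call without C1 replicate 1 (adjusted p = 0.052), C1 replicate 2 (0.067) or C2-Epi replicate 2 (0.053). The THBS2 call was lost without C1 replicate 1 (log2 change -1.93, adjusted p = 0.23), C2-Epi replicate 1 (adjusted p = 0.095) or C2-Epi replicate 2 (adjusted p = 0.098), and with DESeq2 (adjusted p = 0.052). FN1 did not pass the test here, with a log2 change of -0.08 (SE 0.12, adjusted p = 0.64) and a sign that turned with no filter on low counts. SPARC differed by 0.14 (SE 0.32, adjusted p = 0.77) and FBN1 by 0.49 (SE 0.24, adjusted p = 0.13).

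**Figure D4:**
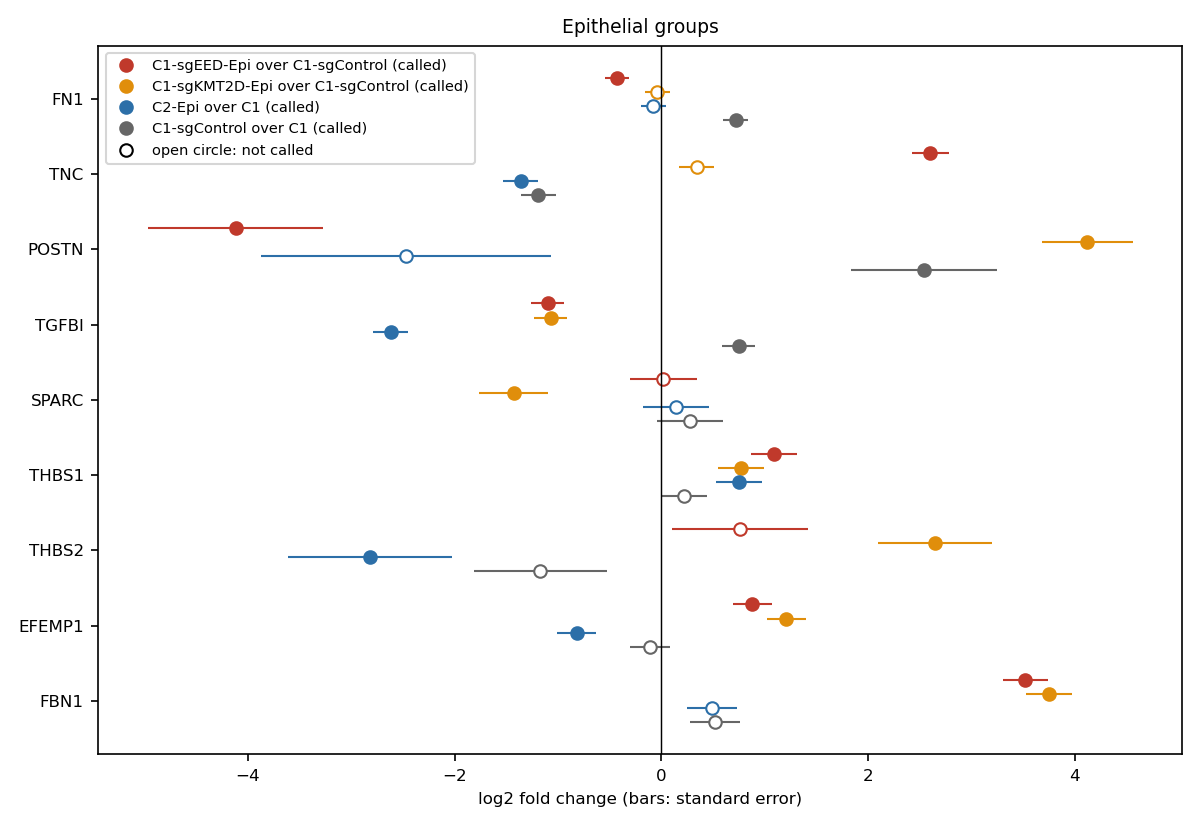
log2 fold change (x axis; bars are standard errors) of each of the 9 genes between epithelial groups: C1-sgEED-Epi (red) and C1-sgKMT2D-Epi (orange) over C1-sgControl, C2-Epi over C1 (blue) and C1-sgControl over C1 (grey). Filled circles passed the test; FBN1 is 3.52 and 3.75 for the guides, and POSTN is -4.12 for the EED guide and 4.12 for the KMT2D guide.

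Ordered by group mean over the 8 groups (n = 2 each), the 9 genes fell into different rankings. FN1 ran from C1-sgKMT2D-Mes (136155 ± 7753 CPM, SD) through C1-sgEED-Mes (96794 ± 1711), C2-Mes (36186 ± 1945), C1-sgControl (21681 ± 1105), C1-sgKMT2D-Epi (21075 ± 377), C1-sgEED-Epi (16106 ± 1246) and C1 (13165 ± 94.1) to C2-Epi (12435 ± 126). Neighbours are called within their spread if their libraries overlapped or their means lay closer than the sum of their SDs, which is no test. Of these neighbours only C1-sgControl and C1-sgKMT2D-Epi lay within their spread. C2-Epi and C1 lay beyond it, though their FN1 difference did not pass edgeR's test (log2 change -0.08, adjusted p = 0.64). FBN1 ran from C1-sgEED-Mes (1667 ± 38.6 CPM) through C1-sgKMT2D-Mes (985 ± 49.4), C2-Mes (312 ± 63.0), C1-sgKMT2D-Epi (39.5 ± 3.27), C1-sgEED-Epi (33.6 ± 1.5), C1-sgControl (2.92 ± 0.977) and C2-Epi (2.86 ± 0.507) to C1 (2.04 ± 0.0652). C1-sgControl and C2-Epi overlapped. SPARC also had the mesenchymal groups on top, at 3905 ± 188 CPM in C1-sgEED-Mes, 2108 ± 54.0 in C1-sgKMT2D-Mes and 1033 ± 717 in C2-Mes. C2-Mes did not differ beyond that spread from C1-sgEED-Epi, at 351 ± 45.1 CPM, and C1-sgKMT2D-Epi was lowest at 128 ± 1.32 CPM.

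For the other genes the ranking did not follow the state. TNC had C1-sgEED-Mes (461 ± 111 CPM), C2-Mes (299 ± 46.8) and C1-sgEED-Epi (193 ± 13.2) on top and C1-sgKMT2D-Mes (15.1 ± 0.121) at the bottom, and only C1-sgControl and C2-Epi were neighbours within their spread. C1-sgKMT2D-Epi and C1-sgControl lay beyond theirs, though their TNC difference did not pass edgeR's test (log2 change 0.34, adjusted p = 0.10). POSTN had C1-sgEED-Mes first (473 ± 160 CPM), then C1-sgKMT2D-Epi (23.6 ± 2.45) and C1-sgKMT2D-Mes (17.4 ± 1.61). Next came C2-Mes (3.65 ± 2.27 CPM) and C1-sgControl (1.35 ± 0.340), and last C1 (0.230 ± 0.0943), C1-sgEED-Epi (0.0762 ± 0.108) and C2-Epi (0.0361 ± 0.0511), each set within its spread. TGFBI had C1-sgEED-Mes first (3032 ± 423 CPM), then C1-sgControl (1247 ± 85.6) and C1 (741 ± 12.3). C1-sgKMT2D-Mes (25.1 ± 2.49 CPM) and C2-Mes (19.4 ± 3.98) came last for TGFBI and were within their spread of each other. THBS1 had C1-sgEED-Epi first (7389 ± 522 CPM) and C2-Mes last (160 ± 67.9), with C1-sgControl, C1-sgKMT2D-Mes and C1 within their spread between 3468 and 2986 CPM. EFEMP1 had C1-sgEED-Mes first (1031 ± 151 CPM) and C2-Mes last (2.95 ± 1.28), and only C1-sgKMT2D-Mes (363 ± 25.4) and C1-sgKMT2D-Epi (349 ± 1.97) were neighbours within their spread. C1-sgControl and C1 lay beyond theirs, though their EFEMP1 difference did not pass edgeR's test (log2 change -0.11, adjusted p = 0.72). THBS2 had C1-sgKMT2D-Epi first (0.828 ± 0.0683 CPM) and C2-Epi last (0.0373 ± 0.00163), and the 6 groups between them lay within their neighbours' spread.

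Over the 8 group means of log2(CPM + 0.5), which share libraries and depth, FN1 correlated with FBN1 at r = 0.90 and with SPARC at r = 0.88, and SPARC with FBN1 at r = 0.82. THBS1 correlated with EFEMP1 at r = 0.91, and both with TGFBI at r = 0.65. The remaining pairs ran from -0.28 for TNC and THBS1 to 0.79 for POSTN with FN1 and with FBN1. Of 12316 genes ranked by likeness of pattern, FBN1 was most like PAPPA (r = 0.995), a secreted metalloprotease of IGF-binding proteins that was at 61.9 CPM in C1-sgEED-Mes and at 0 in C1. EFEMP1 was most like BCOR (r = 0.992), a transcriptional corepressor, and THBS1 most like EVA1A (r = 0.988). SPARC was most like CREB3L2 (r = 0.984), a transcription factor of the secretory pathway, with PDGFRB, a receptor for PDGF, at the third place (r = 0.974). FN1 was most like SERTAD4-AS1 (r = 0.983), TNC like SEMA7A (r = 0.976), TGFBI like TLNRD1 (r = 0.971) and POSTN like SLC46A3 (r = 0.958). These are descriptions over 8 points.

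Genes related to the 9 were counted in 4 lists. The first list joined genes of fibronectin assembly and cross-linking with collagen V chains, procollagen-processing genes and matrix proteases. It is thus no measure of fibronectin assembly alone. Of its 13 measured genes, 12 rose and 0 fell in C1-sgEED-Mes against C1-sgEED-Epi, where 19.2% of all genes rose and 17.3% fell (median log2 change 1.83, against 0.01 over all genes). In C1-sgKMT2D-Mes against C1-sgKMT2D-Epi, 10 rose and 3 fell, where 26.8% of all genes rose and 24.0% fell (median 1.41, against 0.02). In C2-Mes against C2-Epi 10 rose and 1 fell, where 39.6% of all genes were called (median 1.79, against 0.01). MMP2, a gelatinase, rose by 5.39 log2 units (SE 0.31, adjusted p = 1.3e-08) with the EED guide and by 8.41 (SE 0.37, adjusted p = 6.5e-10) in C2. ADAMTS14, a procollagen N-proteinase, rose by 6.87 (SE 0.47, adjusted p = 8.1e-08) with the EED guide and by 6.05 (SE 0.48, adjusted p = 2.5e-07) with the KMT2D guide. PCOLCE, the enhancer of procollagen C-proteinase, rose by 8.54 (SE 0.36, adjusted p = 5.3e-10) with the KMT2D guide. TGM2, the transglutaminase that cross-links fibronectin, fell by 1.53 (SE 0.16, adjusted p = 3.2e-06) with the KMT2D guide and by 1.46 (SE 0.17, adjusted p = 7.6e-06) in C2.

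Of 17 measured receptors of these proteins, 8 rose and 5 fell with the EED guide, where 19.2% of all genes rose and 17.3% fell. With the KMT2D guide 8 rose and 5 fell, where 26.8% of all genes rose and 24.0% fell, and in C2 9 rose and 5 fell, where 39.6% of all genes were called. Their median log2 changes were 0.03, 0.75 and 0.87, against 0.01, 0.02 and 0.01 over all genes. SDC2, a syndecan used in fibronectin assembly, was 166 ± 42.3 CPM in C1-sgEED-Mes against 8.12 ± 0.332 CPM in C1-sgEED-Epi, and 59.8 ± 2.61 CPM in C1-sgKMT2D-Mes against 0.883 ± 0.0464 CPM in C1-sgKMT2D-Epi. In C2-Mes SDC2 was 40.9 ± 11.7 CPM, against 0.0373 ± 0.00163 CPM in C2-Epi, and it rose in each transition (adjusted p = 1.1e-08, 2.1e-09 and 7.4e-10). C2-Epi held 1 and 1 SDC2 counts, so the ratio of count rates in C2 was 1165 with a counting interval of 322 to 9623. ITGB6, the epithelial integrin subunit that binds fibronectin and activates latent TGF-beta, fell by 4.04 log2 units (SE 0.25, adjusted p = 2.6e-08) with the EED guide. It fell by 6.37 (SE 0.30, adjusted p = 1.4e-09) with the KMT2D guide and fell by 6.08 (SE 0.29, adjusted p = 1.2e-09) in C2. EGFR, which tenascin-C can engage, fell by 2.36 (SE 0.21, adjusted p = 6.7e-07) with the KMT2D guide and by 1.84 (SE 0.21, adjusted p = 7.0e-06) in C2. ITGA4, an integrin subunit that binds fibronectin, rose by 7.89 (SE 0.47, adjusted p = 1.3e-08) with the KMT2D guide, with 324 and 354 counts in C1-sgKMT2D-Mes against 0 and 3 in C1-sgKMT2D-Epi (ratio of rates 258, counting interval 87.8 to 1253), and ITGB3, a subunit of a vitronectin and fibronectin receptor, by 5.29 (SE 0.61, adjusted p = 1.1e-05) with the EED guide.

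Of 16 measured elastic fibre and microfibril genes other than FBN1, 10 rose and 1 fell with the EED guide, where 19.2% of all genes rose and 17.3% fell. With the KMT2D guide 12 rose and 0 fell, where 26.8% of all genes rose and 24.0% fell, and in C2 13 rose and 0 fell, where 39.6% of all genes were called. Their median log2 changes were 2.11, 3.12 and 3.12, against 0.01, 0.02 and 0.01 over all genes. FBLN5, the elastogenic fibulin-5, rose by 7.43 log2 units (SE 0.29, adjusted p = 4.2e-10) with the EED guide, to 581 ± 28.4 CPM in C1-sgEED-Mes against 3.36 ± 0.0126 CPM in C1-sgEED-Epi. FBN2, fibrillin-2, was the gene that fell there, by 1.22 (SE 0.15, adjusted p = 2.2e-05). EFEMP2, fibulin-4, rose by 6.09 (SE 0.40, adjusted p = 3.0e-08) with the KMT2D guide, and MFAP4, a microfibril-associated protein, by 8.96 (SE 0.57, adjusted p = 1.2e-06) in C2.

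Of 20 measured other matricellular genes, 12 rose and 2 fell with the EED guide, where 19.2% of all genes rose and 17.3% fell. With the KMT2D guide 13 rose and 1 fell, where 26.8% of all genes rose and 24.0% fell, and in C2 7 rose and 6 fell, where 39.6% of all genes were called. Their medians were 2.04, 2.62 and 0.07 log2 units, against 0.01, 0.02 and 0.01 over all genes. CCN4, a CCN protein induced by Wnt signalling, was 125 ± 16.9 CPM in C1-sgEED-Mes against 0.0190 ± 0.0269 CPM in C1-sgEED-Epi (log2 change 12.39, SE 0.43, adjusted p = 1.8e-10). The CCN4 fold rests on 1 and 0 counts in C1-sgEED-Epi, and the ratio of count rates was 6911 with a counting interval of 1240 to 273022. COMP, a thrombospondin of cartilage, was at least 74.0-fold higher in C1-sgEED-Mes, at 8.12 ± 2.83 CPM, than in C1-sgEED-Epi, where it had 0 counts (bound from a floor of 3 counts). MGP, an inhibitor of calcification, rose by 8.79 (SE 0.54, adjusted p = 2.6e-08) and FBLN1, fibulin-1, by 7.62 (SE 0.19, adjusted p = 1.0e-11) with the KMT2D guide. CCN3 rose by 10.65 (SE 0.42, adjusted p = 2.2e-10) in C2. SMOC1, a SPARC-related protein of basement membranes, fell by 4.99 (SE 0.58, adjusted p = 1.3e-05) with the EED guide, with 3 and 0 counts in C1-sgEED-Mes against 54 and 58 in C1-sgEED-Epi (ratio of rates 0.0292, counting interval 0.00593 to 0.0875), and fell by 2.54 (SE 0.34, adjusted p = 3.2e-05) in C2.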

How the data were processed

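RNA-seq was deposited as 1 table of raw counts per library. Per the submitters' processing notes the authors used STAR 2.7.1a, featureCounts and GRCh38; which annotation, strand and multimapping settings applied is not given in the sources used here. The deposited values are whole-number counts for 60448 Ensembl genes, and symbols and coordinates came from GENCODE 29. Genes on the opposite strand that share exons with TNC, SPARC or THBS1 cover at most 7.9% of a gene's exon length and held at most 50 counts, but without a strand setting their reads cannot be told apart.

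The tests used edgeR 4.0.16 and limma 3.58.1 under R 4.3.3; figures used Python 3.11.15 and matplotlib 3.10.9. For the 18285 genes that passed filterByExpr, TMM scaling preceded a robust quasi-likelihood fit to all 16 libraries, with a mean for each of the 8 groups, leaving 8 residual degrees of freedom. Groups of 2 share that spread, so calls for C2-Mes, whose libraries agreed least, may rest on a smaller spread than its own. An exact permutation test of 2 against 2 libraries cannot go below p = 0.333. In all, 10 pairs of groups and 3 interactions were tested, each adjusted over all genes. RPKM used merged exon length. Bounds against groups at 0 used 3 counts per library. Total counts limit the precision of low genes, and counting intervals cover counting error only.

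The 9 genes and the lists were chosen with earlier results of these data known. Text names the 9 genes, and from each list the called genes with the 2 highest and the 2 lowest log2 changes, given 1 CPM or more in the higher group. It also names the 3 genes most like each of the 9 among those with at least 5 CPM, and the checks of the labels; not all are printed. The pipeline was tested on simulated data. Alternatives were RLE scaling, no filter, DESeq2 1.42.0, a replicate block, only the compared libraries, C1 as the control, a correction of GC content and length (spline with 4 degrees of freedom, genes whose mean count was 50 or more), and each library left out. A crossed replicate block, and the uncrossed block in fits of only the compared libraries, were chosen after seeing the data. Promoters came from RefSeq's table, which held 8 of the 9 genes; protein sequences were not used here.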

Additional observations from a re-analysis of the deposited data

Results flagged for a closer look

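These are differences between 2 transitions, in log2 units, each from edgeR's interaction test with an adjusted p under 0.05. Clone and state cannot be told apart in them.

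For the EED-guide transition minus that of C2, FN1 differed by 1.05, SPARC by 1.76, THBS1 by 4.69, TGFBI by 5.03 and EFEMP1 by 6.90, all more positive with the EED guide. TNC differed by -2.14 and FBN1 by -1.13. The SPARC value was 2.74 without C2-Mes replicate 2, and in a fit of only these 8 libraries its adjusted p was 0.082. The FBN1 call was lost without C2-Epi replicate 2 (-0.93, adjusted p = 0.061).

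For the KMT2D-guide transition minus that of C2, FN1 differed by 1.15, SPARC by 2.32, THBS1 by 4.04 and EFEMP1 by 5.07. TNC differed by -4.81, POSTN by -6.82, TGFBI by -1.92, THBS2 by -4.89 and FBN1 by -2.13. THBS2 passed the filter on low counts through C1-sgKMT2D-Epi, so its call is not independent of the filter. SPARC was 3.27 without C2-Mes replicate 2, and POSTN was -9.98 without C2-Epi replicate 1, which holds the 2 POSTN counts of C2-Epi, and -7.44 to -5.96 without 1 of the other C2 libraries.

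For the EED-guide transition minus the KMT2D-guide transition, TNC differed by 2.67, POSTN by 13.01, TGFBI by 6.94, THBS2 by 2.31, EFEMP1 by 1.83 and FBN1 by 0.99. POSTN was 17.03 without C1-sgEED-Epi replicate 1 and 12.01 without replicate 2. The THBS2 call, again not independent of the filter, was lost in 10 of 14 alternative fits. The FBN1 call was lost without C1-sgKMT2D-Epi replicate 1 (0.93) and in no other alternative fit.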

How the results depend on the processing

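Of 1321 values of the 9 genes under alternatives, 1227 kept direction and side of the threshold, 48 lost a call and 21 gained one. A gene that the filter of a fit removed is not counted for that fit. The other 25 values turned sign, 1 of them a value called in the full fit. That was FN1 in C1-sgEED-Epi against C1-sgControl, 0.29 with C1 as the control, where THBS2 was -0.41, 4 of the 9 genes were called in place of 7 and 4601 genes in place of 8930. For C1-sgKMT2D-Epi, C1 as the control turned FN1 to 0.68 and TNC to -0.85. Both were calls there (edgeR adjusted p = 6.4e-04 and 0.0016) but not in the full fit. For FN1, RLE, no filter, DESeq2 and only the compared libraries gave 0.02, 0.04, 0.02 and 0.02. With each library left out, FN1 in C1-sgKMT2D-Epi against C1-sgControl was -0.01 to 0.06. SPARC in C1-sgEED-Epi against C1-sgControl was -0.22 with the GC correction and -0.08 to 0.20 with a library left out. EFEMP1 in the KMT2D-guide transition was -0.03 with no filter and -0.09 to 0.05 with a library left out. FN1 in C2-Epi against C1 was 0.00 with no filter and -0.02 to 0.02 with a library left out. With a library left out, THBS2 ran from -0.03 to 0.96 in the EED-guide transition, from -0.70 to 0.15 in C1-sgEED-Mes against C2-Mes and from -0.10 to 0.76 in C1-sgEED-Mes against C1-sgKMT2D-Mes, turning without C1-sgEED-Mes replicate 1, 2 and 1. EFEMP1 in C1-sgControl against C1 was 0.02 with the GC correction, which moved the median of all genes to 0.23 in the C2 and EED-guide transitions, 0.12 in the KMT2D-guide transition and -0.18 in C1-sgEED-Epi against C1-sgControl. Fits of only the compared libraries called 3361 genes in C2-Mes against C2-Epi (7246 over all libraries), 9967 in C2-Epi against C1 (5620), 3567 in C1-sgEED-Mes against C2-Mes (7664), 2112 in C1-sgKMT2D-Mes against C2-Mes (6103) and 2130 in the EED-guide minus C2 interaction (3866). Leaving out a library gave 2629 to 3466 genes and 2 to 3 of the 9 in C2-Epi against C1, where the full fit called 5 of the 9. It gave 2226 to 3538 genes and 2 to 4 of the 9 in C1-sgControl against C1 (4951 and 4), with 2 of the 9 without C1 replicate 1. It gave 4042 to 8249 in C1-sgKMT2D-Mes against C2-Mes, 3556 to 5301 in C1-sgEED-Mes against C1-sgKMT2D-Mes (5686), 3095 to 6749 in the KMT2D-guide minus C2 interaction (4410) and 2293 to 4118 in the EED-guide minus KMT2D-guide interaction (3674). Whether replicate numbers pair the libraries is not stated. Deviations of same-numbered libraries correlated at -0.37 to 0.34 over 28 pairs of groups, which can neither show nor exclude a pairing. With the replicate block 7138 genes were called in C2-Mes against C2-Epi, 6558 and 9197 in the EED-guide and KMT2D-guide transitions, with calls for 9, 7 and 7 of the 9 genes. The block gained SPARC in C1-sgEED-Mes against C1-sgKMT2D-Mes (adjusted p = 0.043), lost THBS2 in the EED-guide minus KMT2D-guide interaction (adjusted p = 0.053) and changed no other call of the 9. In fits of only the compared libraries, chosen after seeing the data, the block called 3423 genes in C2-Mes against C2-Epi and 3471 in C1-sgEED-Mes against C2-Mes, and a crossed block 5363 and 3971. Such fits hold fewer libraries, and the cause of these moves was not tested. Depth limits THBS2, at 1 to 22 counts a library, and POSTN in C1, C2-Epi and C1-sgEED-Epi, at 0 to 7.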

Other observations

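Matrix genes beyond the 9 also separated the mesenchymal groups. TGM2, a transglutaminase, averaged 1369 ± 183 CPM in C1-sgEED-Mes, against 13.1 ± 1.48 CPM in C2-Mes (SD, n = 2; log2 change 6.71, SE 0.20, adjusted p = 3.9e-11 by edgeR), and 73.1 ± 11.9 CPM in C1-sgKMT2D-Mes. TNS1, a tensin of fibrillar adhesions, averaged 180 ± 30.1 CPM in C1-sgEED-Mes, against 2.14 ± 0.129 CPM in C1-sgKMT2D-Mes (log2 change 6.39, SE 0.31, adjusted p = 5.0e-09). MFAP4, a microfibril-associated protein, averaged 0.203 ± 0.225 CPM in C1-sgEED-Mes, against 39.7 ± 2.98 CPM in C2-Mes (log2 change -7.49, SE 0.51, adjusted p = 1.9e-06). EMILIN1, another elastic fibre protein, averaged 0.193 ± 0.0862 CPM in C1-sgEED-Mes, against 19.4 ± 6.93 CPM in C2-Mes (log2 change -6.59, SE 0.48, adjusted p = 1.1e-07). FBLN1 averaged 90.2 ± 14.6 CPM in C1-sgEED-Mes, against 1154 ± 76.6 CPM in C1-sgKMT2D-Mes (log2 change -3.68, SE 0.15, adjusted p = 1.4e-09).

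The list of fibronectin assembly, collagen V, procollagen-processing and protease genes was also followed among epithelial groups. Of its 13 measured genes, 0 rose and 7 fell in C2-Epi against C1, where 12.4% of all genes rose and 18.3% fell (median log2 change -0.56, against -0.04 over all genes). COL5A1, a fibrillar collagen chain, averaged 0.0361 ± 0.0511 CPM in C2-Epi against 26.3 ± 2.53 CPM in C1 (log2 change -9.28, SE 0.34, adjusted p = 4.3e-09). With 2 and 0 counts in C2-Epi, the ratio of COL5A1 count rates was 0.00142 with a counting interval of 0.000171 to 0.00512. COL5A1 averaged 0.218 ± 0.0391 CPM in C1-sgEED-Epi and 2.93 ± 0.0293 CPM in C1-sgKMT2D-Epi, against 145 ± 1.93 CPM in C1-sgControl. ITGA4 averaged 37.2 ± 10.8 CPM in C1-sgEED-Epi, against 0.0214 ± 0.0303 CPM in C1-sgControl (0 and 1 counts), and 11.6 ± 1.43 CPM in C2-Epi, against 0.124 ± 0.0557 CPM in C1. Of 16 measured elastic fibre genes, 2 rose and 10 fell in C1-sgKMT2D-Epi against C1-sgControl, where 25.3% of all genes rose and 30.7% fell (median -1.59, against -0.09). In C1-sgControl against C1, 5 of the 16 rose and 0 fell, where 13.3% of all genes rose and 13.8% fell (median 0.38, against 0.02). LOXL1, a lysyl oxidase, averaged 0.886 ± 0.0996 CPM in C1-sgKMT2D-Epi against 22.5 ± 2.34 CPM in C1-sgControl (log2 change -4.66, SE 0.46, adjusted p = 3.2e-06).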
